A study of Mus musculus with 6 samples.

Results

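Autophagy is the route by which a cell encloses part of its own cytoplasm in a double membrane, the autophagosome, and delivers it to the lysosome for breakdown. The genes described here are 34 named components of its core machinery, from the kinase complex that starts it to the receptors that select its cargo. They were taken from a list by name, and each gene was read on the probe set with the highest mean signal over all 6 arrays among those that name that gene alone. Of the 34 genes, 33 were measured, out of 18193 genes in all. Optn, a cargo receptor gene, is named by no probe set in the annotation table used here.

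The cells were Flt3-Lin-Sca1+cKit+ stem and progenitor cells of mouse bone marrow, and the animals were of C57BL/6 background. Every mouse carried loxP-flanked ("floxed") exon 6 on both copies of the Raptor gene, Rptor. The 3 arrays of the mutant group came from mice that also carried the MxCre transgene, and the 3 wild type arrays from mice that lacked it. Both groups were injected 3 times within 5 days with polyinosinic-polycytidylic acid (pIpC), 15 µg for each g of weight, and the sort followed 5 weeks later. MxCre is switched on by interferon, which pIpC induces, and it acts in other tissues besides blood cells. Ages are not given in the labels, nor is whether an array holds RNA of a single mouse or a pool. P-values are therefore set by how far these arrays differ among themselves, and some of that may be technical.

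Raptor is the subunit that brings substrates to mTORC1, a kinase complex active when nutrients and growth factors are plentiful. In fed cells mTORC1 phosphorylates Ulk1 and Atg13 and so holds back the start of autophagy, and it keeps the transcription factors TFEB and TFE3, which drive genes of autophagy and the lysosome, out of the nucleus. Much of this control acts on proteins already made, and a transcript level does not measure how much cargo is broken down. In blood stem cells autophagy is known for clearing mitochondria and for keeping cells quiescent. The comparison addressed here is whether transcripts of the machinery differed between Raptor mutant and wild type cells.

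Several features of the arrays touch all that follows. Wild type arrays 2 and 3 carried Y-linked signal (Kdm5d at a log2 signal of 10.6 and 9.53), whereas wild type array 1 and all 3 mutant arrays did not (3.60 to 3.88). Xist, the transcript of the inactive X chromosome, stood at 5.69 on wild type array 3, at 8.05 on wild type array 2 and at 13.4 to 13.5 on the other 4 arrays. Stem and progenitor markers were present, with Kit at a mean log2 signal of 10.9 in wild type and 10.8 in mutant arrays. Signal for Flt3, a marker the gate removed, stood at 10.2 and 9.96. The other measured markers listed as gated out stood at 4.70 and 4.24 (Cd3e), 6.64 and 6.37 (Cd4), 6.41 and 6.23 (Cd8a), 6.19 and 5.28 (Itgam) and 11.8 and 11.7 (Ptprc). Of these, Itgam was lower in mutants at a limma unadjusted p of 0.00922 (adjusted p = 0.31). Marker lists of other cells differed between the groups. Signals of a list were summed on the linear scale before log2 was taken, so the brightest markers weigh most. The log2 of the summed signal of 8 neutrophil markers was 14.1 to 14.7 on wild type and 10.9 to 12.5 on mutant arrays. Of the 8, 6 were lower at an unadjusted limma p under 0.05. At that p, 4.24% of all genes were lower and 5.81% higher, which is the background for the marker counts given here. That of 10 macrophage and dendritic cell markers was 10.6 to 10.8 against 11.8 to 12.9, with 5 of 10 higher. That of 9 mast cell and basophil markers was 11.2 to 11.5 against 12.5 to 13.1, with 6 of 9 higher. For 6 megakaryocyte markers it was 12.1 to 12.3 against 10.9 to 11.5, with 3 of 6 lower, and for 8 stem cell markers 14.2 to 14.3 against 13.8 to 13.9, with 4 of 8 lower. The ranges of the T and NK cell, B cell and erythroid lists overlapped between groups, with no marker at that p. The part of these shifts in the values below was not tested. In a bulk sample, fewer cells of a type and less RNA per cell cannot be told apart. The targeted gene itself had a log2 difference, mutant minus wild type, of 0.22 (limma adjusted p = 0.771). The position of its probes in the gene was not analysed, so this value checks neither the deletion of exon 6 nor the labels.

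None of the 33 autophagy genes differed between mutant and wild type arrays at an adjusted p under 0.05, by limma with Benjamini-Hochberg adjustment over all genes, a threshold that 0.110% of all genes passed (0.0550% higher and 0.0550% lower in mutants). At an unadjusted p under 0.05, 1 of the 33 genes differed, Ulk1, which is 3.03% of them, while 10.0% of all genes did (5.81% higher and 4.24% lower). Mutant and wild type values did not overlap in 3 of the 33 (9.09%), and in 16.1% of all genes (8.08% with mutants above and 7.98% below). These 3 genes were Ulk1 and Gabarapl2, lower in mutants, and Uvrag, higher. Log2 differences were above 0 in 16 of 33 genes and below 0 in 17, against 40.4% above 0 over all genes and 58.5% once the dimmer 50% of genes were left out. The median was -0.026 in the list and -0.071 over all genes. Once the dimmer 50% of genes were left out, the medians were -0.020 and 0.060, so their order depended on brightness.

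**Figure D1:**
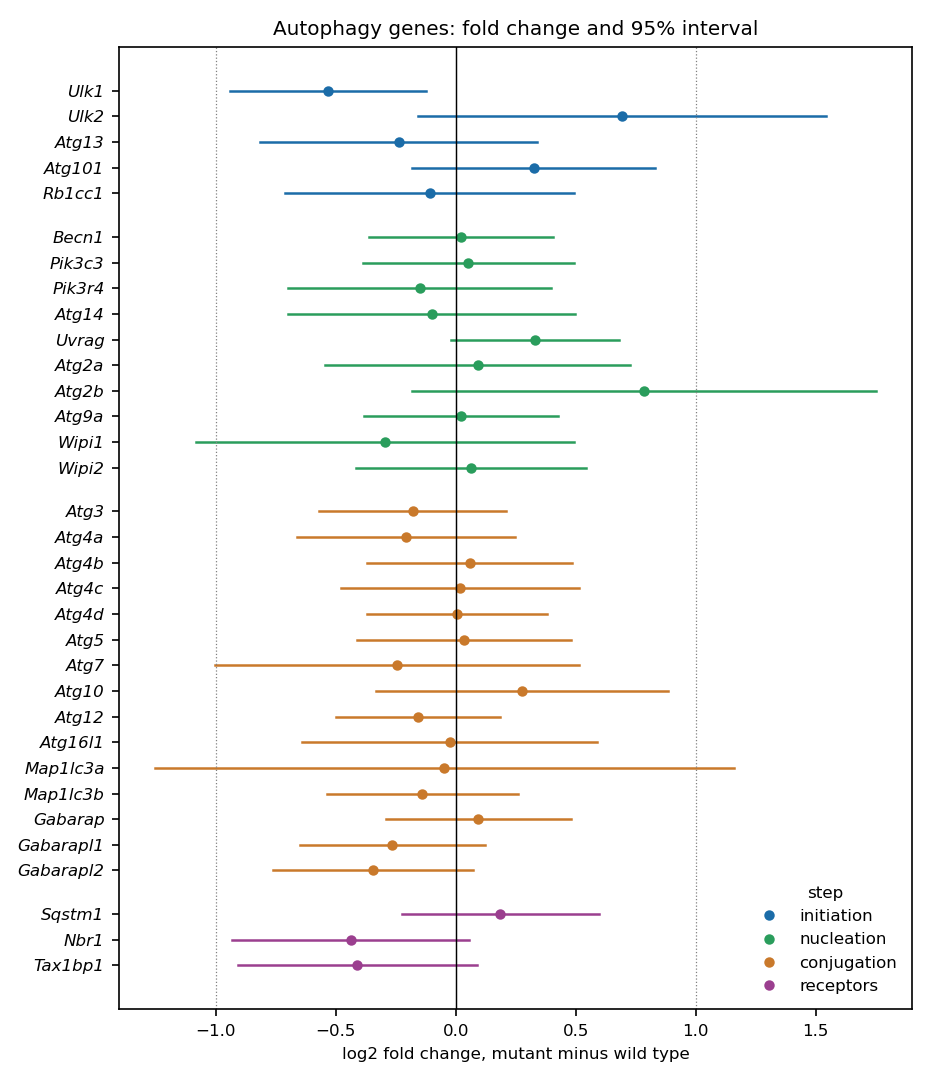
Log2 fold change (mutant minus wild type, horizontal axis) of each of the 33 measured autophagy genes, grouped by step, with the 95% interval of the limma fit as a bar. The interval of Ulk1 alone excludes 0, and dotted lines at -1 and 1 mark a change of 2-fold, within which 28 of the 33 intervals lie.

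The 95% intervals give a range for each difference, which is not the size that the adjusted threshold would call. They hold for the brightest probe set of a gene, with the wild type arrays taken as a single group. For Atg5 the interval ran from -0.41 to 0.48, while a dimmer probe set gave -0.71. In simulated data, 40 of 100 genes given a 2-fold change passed the adjusted threshold in limma. The simulated arrays were independent and had equal variance in both groups. In the real arrays the wild type SD was the larger in 75.8% of all genes, so that share need not hold for them. The 95% interval of the log2 difference, not adjusted for the number of genes, lay between -1 and 1, a change of 2-fold either way, in 28 of 33 genes (84.8%), compared with 80.2% of all genes. The median half-width of the interval was 0.48. The 5 genes whose interval reached further were Ulk2, Atg2b, Wipi1, Atg7 and Map1lc3a. A difference of more than 0.5 was fitted in 3 genes, Atg2b, Ulk2 and Ulk1, which is 9.09% of the 33 against 12.9% of all genes. A difference of more than 1 was fitted in 0 of 33 genes, against 428 of 18193.

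**Figure D2:**
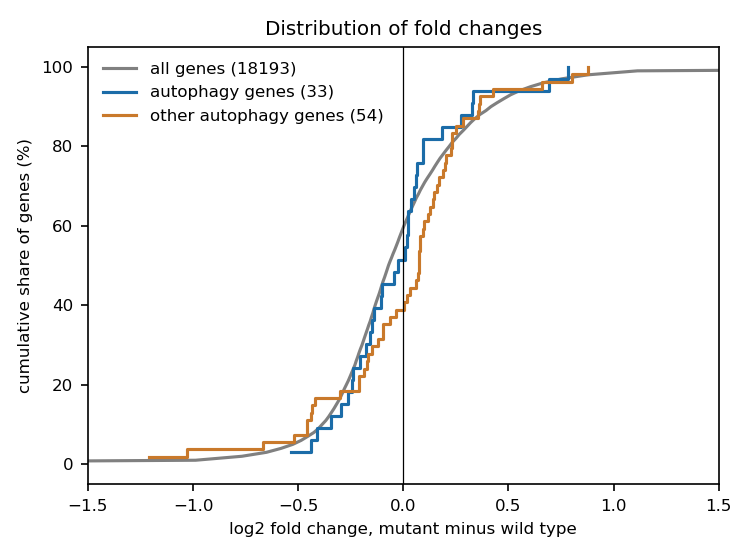
Cumulative share of genes (vertical axis, percent) by log2 fold change (horizontal axis) for the 33 autophagy genes, for 54 other genes of the pathway and for all 18193 genes. The axis is cut at -1.5 and 1.5, and the medians are -0.026, 0.075 and -0.071.

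How far a gene varied within a group differed between groups. The SD among wild type arrays was larger than that among mutant arrays in 20 of 33 genes (60.6%), and in 75.8% of all genes. Wild type arrays 1, 2 and 3 held the highest or lowest of the 6 values in 10, 17 and 15 of the 33 genes, which is 30.3%, 51.5% and 45.5%, against 32.3%, 42.5% and 49.1% of all genes. Mutant arrays 1, 2 and 3 did so in 7, 5 and 12 of the 33, which is 21.2%, 15.2% and 36.4%, against 29.8%, 20.4% and 25.9% of all genes. The difference between the mutant mean and wild type array 1 had the same sign as that between the mutant mean and the mean of wild type arrays 2 and 3 in 18 of 33 genes (54.5%), close to the 53.2% of all genes.

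**Figure D3:**
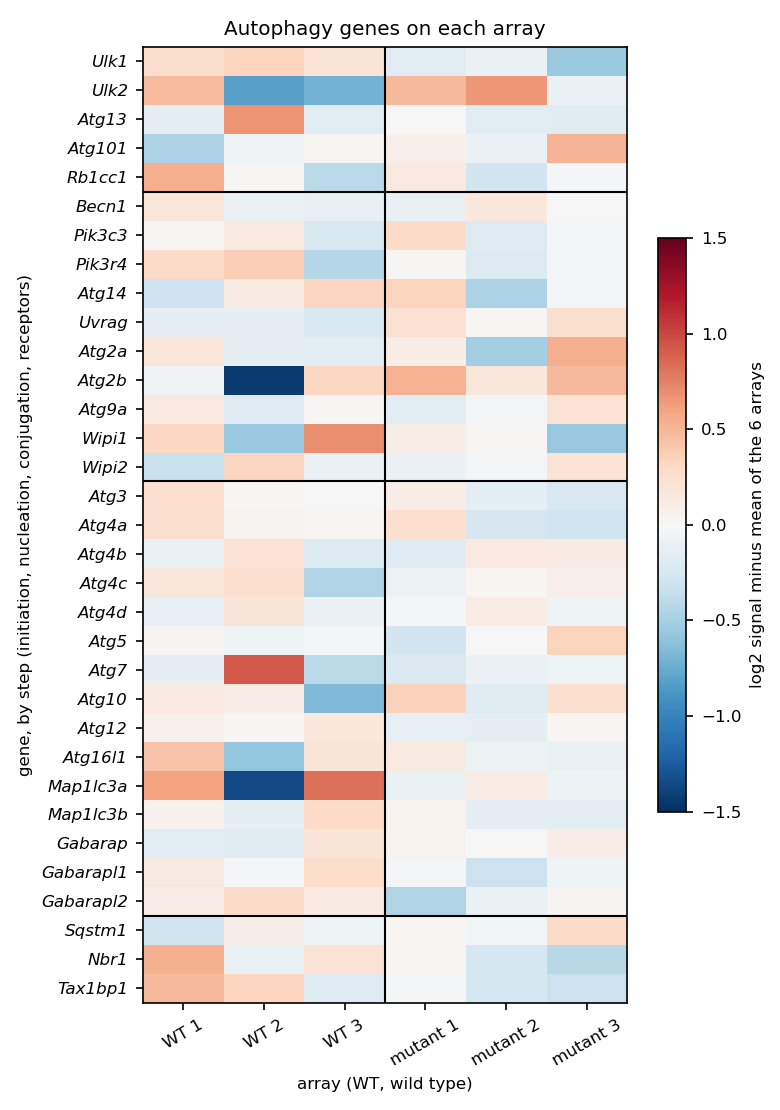
Log2 signal of each of the 33 autophagy genes (rows, by step) on each of the 6 arrays (columns), as the difference from the gene's mean over the arrays (colour). The strongest colours fall on wild type array 2, low for Atg2b and Map1lc3a and high for Atg7, where the signals were 7.05, 6.88 and 9.42.

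The promoters were searched for letters bound by factors that mTORC1 and Akt signalling restrain. RefSeq promoter windows of 300 bases, from 250 before to 50 after a gene's start in build GRCm38.p6, were at hand for 28 of the 34 listed genes (32 windows). The E-box CACGTG, which TFEB and TFE3 can bind, was in 4 of the 32 (12.5%) and in 7.15% of all 32851 windows. Its longer form TCACGTGA, the core of the CLEAR element and itself containing the E-box, was in 1 of 32 (3.12%) and 0.974% of all. The forkhead core TGTTTAC, searched on both strands, was in 0 of 32 and 3.65% of all. These are matches of letters only. The windows that hold an E-box are given 5′ to 3′ on the strand of the gene, with the match in capitals. They mark which members carry these letters, and binding by any factor was not measured.
Atg3, chr16:45158745-45158776, plus strand: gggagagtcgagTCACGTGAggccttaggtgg
Atg3, chr16:45158723-45158752, plus strand: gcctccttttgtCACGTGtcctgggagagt
Atg5, chr10:44268313-44268342, plus strand: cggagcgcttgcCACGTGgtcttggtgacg
Atg7, chr6:114670952-114670981, plus strand: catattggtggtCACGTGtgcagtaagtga
Atg14, chr14:47568418-47568447, minus strand: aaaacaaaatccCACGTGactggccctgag
Relative to the gene's start, the matches begin at -72 and -94 in Atg3, -14 in Atg5 and -132 in Atg7, while that of Atg14 spans the start. On the brightest probe set, the log2 differences of these 4 genes were -0.18 for Atg3, 0.034 for Atg5, -0.24 for Atg7 and -0.10 for Atg14. Their limma adjusted p was 0.704, 0.954, 0.78 and 0.886. The dimmer Atg5 probe sets gave -0.30 and -0.71, both with all mutant values below all wild type values. At -0.30 the groups nearly touched, with a highest mutant value of 7.42303 and a lowest wild type value of 7.42322. The limma unadjusted p of these probe sets was 0.2 and 0.00691, and their adjusted p 0.669 and 0.331. The dimmer Atg3 probe set gave -0.48, and the 4 of Atg7 ran from -0.24 to 0.16.

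The initiation step is a kinase complex made of Ulk1 or its relative Ulk2 with Atg13, Atg101 and the scaffold Rb1cc1, also called FIP200. All 5 were measured, and 1 of them, Ulk1, was lower at an unadjusted p under 0.05. Ulk1, the kinase that mTORC1 inhibits, had log2 signals of 9.71, 9.77 and 9.65 on wild type arrays and of 9.29, 9.36 and 8.89 on mutant arrays. Every mutant value lay below every wild type value, and mutant array 3 was the lowest. The mean went from 9.71 ± 0.062 to 9.18 ± 0.25 (SD, n = 3 each), a log2 difference of -0.53 ± 0.18 (SE), or 1.45-fold lower (limma adjusted p = 0.392). The difference was the same whether set against wild type array 1 (-0.53) or against arrays 2 and 3 (-0.53). The size of the difference moved with the probe set and with 1 array. The dimmer Ulk1 probe set had a difference of 0.016, the mean of both gave -0.26, and without mutant array 3 the difference was -0.39 and Ulk1 no longer passed the unadjusted threshold.

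Ulk2 ran the other way in the mean, but its wild type arrays disagreed. Its log2 signals were 8.77, 7.48 and 7.59 on wild type arrays and 8.78, 8.95 and 8.20 on mutant arrays. Wild type array 1 stood within the mutant range, and wild type arrays 2 and 3 stood below all others. The fitted difference was 0.69 ± 0.37 (SE, limma adjusted p = 0.568), with an interval from -0.16 to 1.54. Against wild type array 1, the wild type array without Y-linked signal, the mutant mean differed by -0.13, and against arrays 2 and 3 by 1.10. Genotype and Y-linked signal cannot be told apart for this gene. All 4 Ulk2 probe sets had differences above 0, from 0.27 to 0.69. They were read on the same arrays, so they do not separate genotype from Y-linked signal either.

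Of the partners of the kinases, Atg13, which mTORC1 also phosphorylates, stood at 8.29, 9.12 and 8.28 on wild type and at 8.43, 8.28 and 8.26 on mutant arrays. Wild type array 2 alone was high, and the groups overlapped (log2 difference -0.24 ± 0.25 SE, limma adjusted p = 0.728). Rb1cc1 stood at 10.3, 9.79 and 9.37 on wild type and at 9.92, 9.49 and 9.75 on mutant arrays, with a difference of -0.11 ± 0.26 (limma adjusted p = 0.877). The wild type values of Rb1cc1 reached beyond the mutant values at both ends. Atg101, which stabilises Atg13, was measured by a single probe set and had a difference of 0.33 (limma adjusted p = 0.635).

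**Figure D4:**
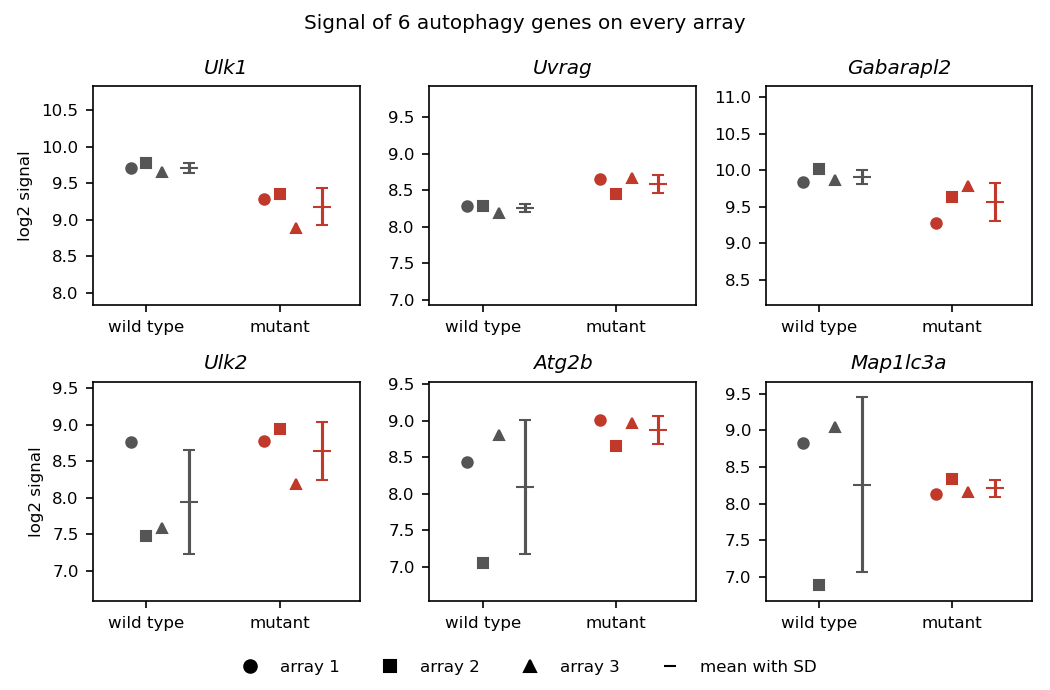
Log2 signal (vertical axis) of 6 autophagy genes on each wild type (grey) and mutant (red) array, with array numbers as symbols and the group mean with its SD beside them. Ulk1, Uvrag and Gabarapl2 are the genes whose groups do not overlap, and Ulk2, Atg2b and Map1lc3a have wild type values that span 1.28, 1.75 and 2.17 log2 units.

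Nucleation needs a lipid kinase complex and a supply of membrane. The lipid kinase Pik3c3 (Vps34) works with the subunits Pik3r4, Becn1 and either Atg14, for autophagosome formation, or Uvrag, for later trafficking. Of these 5 genes, 0 passed the unadjusted threshold and differences ran from -0.15 to 0.33. Uvrag had log2 signals of 8.28, 8.29 and 8.19 on wild type and of 8.65, 8.44 and 8.66 on mutant arrays. All 3 mutant values were above all 3 wild type values. The means were 8.25 ± 0.058 and 8.58 ± 0.12 (SD, n = 3 each), a log2 difference of 0.33 ± 0.15 (SE), or 1.26-fold (limma adjusted p = 0.521). The mutant mean exceeded wild type array 1 by 0.30 and the mean of arrays 2 and 3 by 0.35. Uvrag is read by a single probe set, so no second probe set checks it.

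Becn1, the Beclin 1 subunit on which many regulators act, stood at 10.6, 10.3 and 10.3 on wild type and at 10.3, 10.6 and 10.4 on mutant arrays. The groups covered nearly the same range (log2 difference 0.022 ± 0.17 SE, limma adjusted p = 0.966), and the interval ran from -0.36 to 0.41. The second brightest of its 5 probe sets gave 0.025, while the dimmest gave -0.51. Pik3c3, Pik3r4 and Atg14 had differences of 0.053, -0.15 and -0.10, with limma adjusted p from 0.811 to 0.923.

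The genes of membrane supply are Atg9a, a protein of small vesicles that scrambles lipids, Atg2a and Atg2b, which transfer lipids, and Wipi1 and Wipi2, which read the lipid that Pik3c3 makes. Of these 5 genes, 0 passed and differences ran from -0.29 to 0.78. Atg2b had log2 signals of 8.43, 7.05 and 8.80 on wild type and of 9.01, 8.66 and 8.96 on mutant arrays. Wild type array 2 was far below the rest, and wild type array 3 lay within the mutant range. The difference was 0.78 ± 0.42 (SE, limma adjusted p = 0.569). Without wild type array 2 it was 0.26, and the other Atg2b probe sets gave -0.058 and 0.014. Atg9a stood at 7.69, 7.35 and 7.56 on wild type and at 7.39, 7.53 and 7.75 on mutant arrays, a difference of 0.021 ± 0.17 (SE, limma adjusted p = 0.969) with groups that overlapped throughout. Atg2a and Wipi2 had differences of 0.092 and 0.065. Wipi1 had one of -0.29, which was -0.65 without wild type array 2 and -0.017 without wild type array 3, and 5 of its 6 probe sets were below 0.

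Conjugation attaches the ubiquitin-like Atg8 proteins, the LC3 and GABARAP families, to membrane lipid. Atg7 activates them, Atg3 passes them on, and Atg12, joined to Atg5 by Atg10 and bound to Atg16l1, directs them to the growing membrane. Of these 6 enzyme genes, 0 passed and differences ran from -0.24 to 0.28. Atg10 had log2 signals of 9.31, 9.27 and 8.51 on wild type and of 9.51, 8.99 and 9.41 on mutant arrays. Wild type array 3 was the lowest and the other wild type arrays lay within the mutant range (difference 0.28 ± 0.26 SE, limma adjusted p = 0.707). Without wild type array 3 the difference was 0.015. Atg7 had 1 high value, 9.42 on wild type array 2, against 8.10 to 8.44 on the other 5 arrays. Without that array its difference was 0.16 in place of -0.24. Atg12 and Atg16l1 had differences of -0.16 and -0.026.

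The Atg4 proteases trim the Atg8 proteins before conjugation and release them from membrane afterwards. The 4 genes had differences from -0.21 (Atg4a) to 0.059 (Atg4b), and 0 of 4 passed. Atg4c stood at 7.84, 7.92 and 7.23 on wild type and at 7.59, 7.70 and 7.75 on mutant arrays, a difference of 0.018 ± 0.21 (SE, limma adjusted p = 0.978). Atg4d stood at 7.68, 7.99 and 7.72 on wild type and at 7.77, 7.91 and 7.73 on mutant arrays, a difference of 0.0063 ± 0.16 (SE, limma adjusted p = 0.992). Both had mutant values inside the wild type range, and the interval of Atg4d ran from -0.37 to 0.38.

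Of the 5 Atg8 protein genes, 4 had differences below 0 and 0 passed, with a median of -0.14. Gabarapl2, also known as GATE-16, had log2 signals of 9.84, 10.02 and 9.86 on wild type and of 9.28, 9.64 and 9.78 on mutant arrays. All mutant values were below all wild type values, though mutant array 3 came close to the lowest of them. The means were 9.91 ± 0.10 and 9.57 ± 0.26 (SD, n = 3 each), a difference of -0.34 ± 0.18 (SE), or 1.27-fold lower (limma adjusted p = 0.567). Gabarapl1, a FoxO target in muscle, had a difference of -0.26 and its other probe set one of 0.11. Gabarap and Map1lc3b, the gene of the widely used autophagosome marker LC3B, had differences of 0.094 and -0.14. Probe sets of Map1lc3b disagreed. The second brightest gave -0.51, with all mutant values below all wild type values (limma unadjusted p = 0.0282, adjusted p = 0.485). Its dimmer probe sets gave -0.28 and 0.53. Map1lc3a, chosen after its values were seen, had the widest wild type spread of the 33 genes, at 8.83, 6.88 and 9.05 against 8.13, 8.34 and 8.15 on mutant arrays. The mutant values lay between wild type array 2 and the other wild type arrays, so its difference was -0.046 with wild type array 2 and -0.73 without it (limma adjusted p = 0.278). The dimmer Map1lc3a probe set had a narrower wild type spread, at 6.82, 6.55 and 7.33, and a difference of -0.023 with all arrays.

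Receptors bind cargo, often through ubiquitin, and the Atg8 proteins on the membrane. The 3 measured genes had differences of 0.19, -0.44 and -0.41, and 0 passed. Sqstm1, the receptor p62, which is itself degraded by autophagy as a protein, had log2 signals of 9.20, 9.59 and 9.43 on wild type and of 9.53, 9.46 and 9.79 on mutant arrays. Wild type array 1 was the lowest, and the groups overlapped (difference 0.19 ± 0.18 SE, limma adjusted p = 0.708). Its dimmer probe set had a difference of -0.29.

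Nbr1, a receptor built like p62, had log2 signals of 11.5, 10.8 and 11.2 on wild type and of 11.0, 10.7 and 10.5 on mutant arrays, a difference of -0.44 ± 0.21 (SE, limma adjusted p = 0.546). Tax1bp1, a ubiquitin-binding receptor, stood at 11.9, 11.7 and 11.2 on wild type and at 11.4, 11.1 and 11.1 on mutant arrays, a difference of -0.41 ± 0.21 (SE, limma adjusted p = 0.567). In both genes wild type array 1 was the highest of the 6, and 1 wild type array lay below the highest mutant array. The mutant mean was below wild type array 1 by more (-0.75 for Nbr1 and -0.69 for Tax1bp1) than below the mean of arrays 2 and 3 (-0.28 and -0.27). Every probe set of the pair, 2 for Nbr1 and 4 for Tax1bp1, had a difference below 0. These ran from -0.44 to -0.19 for Nbr1 and from -0.73 to -0.015 for Tax1bp1.

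Probe sets of the same gene often disagreed. Of the 24 genes with more than 1 probe set, 14 had probe sets on both sides of 0. Over all 79 probe sets of the list, 48 were below 0 and 31 above, and 5 (6.33%) had an unadjusted limma p under 0.05, against 9.39% of all 34945 probe sets that name a single gene. All 5 were lower in mutants, in Ulk1, Wipi1, Atg5, Map1lc3b and Tax1bp1, and 4 of the 5 were not the brightest of their gene. Over all 34945 probe sets 3.66% were lower and 5.73% higher at that threshold. The smallest adjusted limma p of the 79 was 0.331, so 0 passed the adjusted threshold that 0.0343% of all such probe sets passed.

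**Figure D5:**
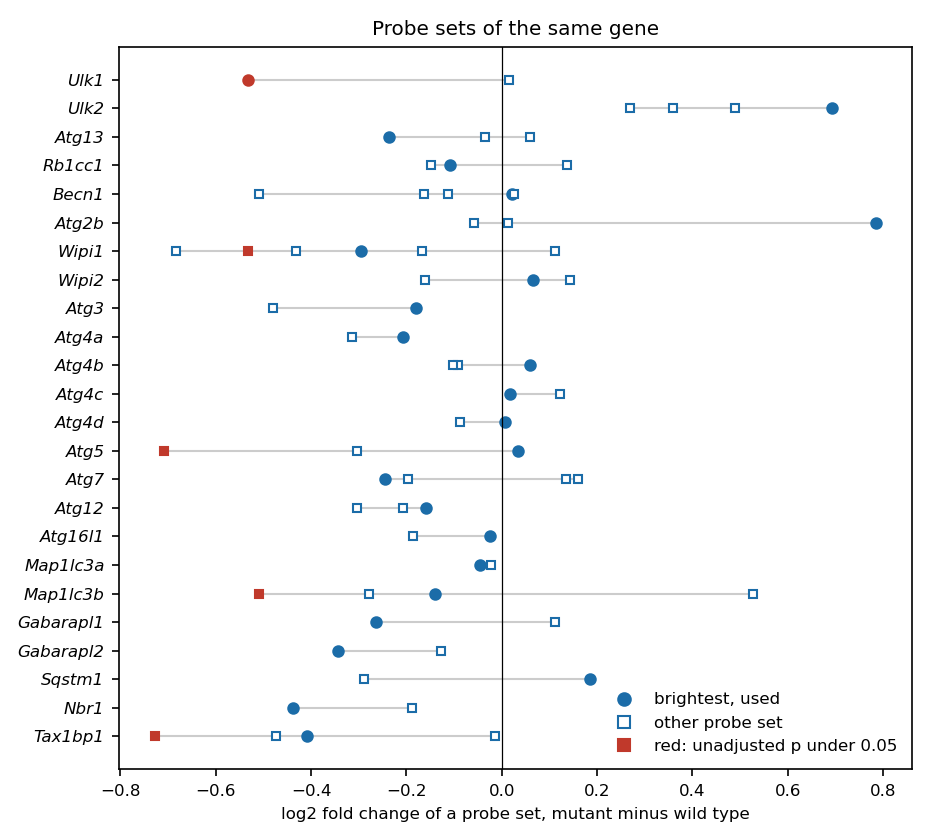
Log2 fold change (mutant minus wild type, horizontal axis) of every probe set of the 24 autophagy genes with more than 1, with the brightest as a filled circle and others as squares. Red marks the 5 probe sets at an unadjusted p under 0.05, and 14 genes have probe sets on both sides of 0.

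Beyond the core machinery, 54 of 56 listed genes were measured that regulate these steps, act as further receptors, fuse autophagosomes with lysosomes or drive the pathway's transcription. By limma 0 passed the adjusted threshold. At an unadjusted p under 0.05, 4 were higher and 2 lower, 11.1% together beside the 10.0% of all genes, and the median was 0.075. Groups did not overlap in 11 (20.4%), beside 16.1% of all genes.

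Among regulators of the first steps (20 genes), Trp53inp1, a p53 target that binds Atg8 proteins, stood at 10.8, 10.5 and 10.4 on wild type and at 9.78, 8.88 and 9.47 on mutant arrays. The groups did not overlap, and the difference was -1.21 ± 0.26 (SE, limma adjusted p = 0.166). It had the smallest adjusted p of all 54.

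Of 11 other receptor genes, 2 were higher and 1 lower at the unadjusted threshold, 27.3% together beside 10.0% of all genes. Groups did not overlap in 5 of the 11 (45.5%), beside 16.1% of all genes. This short list was chosen with earlier results of these data known. Pink1, the kinase that marks damaged mitochondria for removal, stood at 12.0, 12.4 and 11.5 on wild type and at 11.3, 10.9 and 10.8 on mutant arrays, a difference of -1.03 ± 0.26 (SE, limma adjusted p = 0.238). All mutant values were below all wild type values. Wdfy3, a large adaptor for protein aggregates, and Stbd1, a glycogen receptor, had differences of 0.43 and 0.66 (limma adjusted p = 0.416 and 0.475). The difference of Wdfy3 was 0.11 as the mean of its probe sets. That of Stbd1 was 0.41 without wild type array 2 and 0.071 against wild type array 1 alone. Stbd1 had low signals, with group means of 3.86 and 4.52.

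Of 16 genes of fusion with the lysosome, Vps18, a subunit of the tethering complex HOPS, stood at 8.22, 8.30 and 7.71 on wild type and at 8.68, 9.26 and 8.93 on mutant arrays. Its difference was 0.88 ± 0.23 (SE, limma adjusted p = 0.254), with all mutant values higher, and 0.32 as the mean of its probe sets. Of 7 transcription factor genes, Mitf, a relative of TFEB that is also a factor of mast cells, stood at 8.23, 7.43 and 7.58 on wild type and at 8.46, 8.45 and 8.74 on mutant arrays (difference 0.80 ± 0.24 SE, limma adjusted p = 0.314). The mutant mean exceeded wild type array 1 by 0.32, and the mean of its probe sets gave 0.24. Mast cell markers moved with Mitf, as given above (6 of 9 higher, log2 of the summed signal 11.2 to 11.5 against 12.5 to 13.1). Their part in the Mitf difference was not tested.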

How the data were processed

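Each of 6 samples was hybridised to 1 expression array. The values the authors deposited are intensities on a linear scale, 7.60 to 33795. RMA is named in the submitters' processing notes, and its version and settings were not found in the sources. RMA fits all arrays together, which pulls their distributions alike, so a shift of the whole transcriptome would not show. Log2 was taken before every step. Of 45101 probe sets, 64 controls, 9160 naming no gene and 932 naming several were left out, and the brightest of each gene was used.

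The 3 mutant and 3 wild type arrays entered a limma fit (version 3.58.1, R 4.3.3; lmFit and eBayes without covariates, two-sided), with adjustment by Benjamini-Hochberg over 18193 genes. The procedure was tested on simulated data with independent arrays and equal variance in both groups. There limma called 40 of 100 genes changed 2-fold and 94 of 100 changed 4-fold. The number of arrays limits the precision. The members, lists, motifs and tests were chosen with earlier results of these data known. Per-array values are given for members at an unadjusted p under 0.05 or with groups that do not overlap, and for the 2 largest and 2 smallest absolute differences of each step. Promoter windows are from RefSeq. Other settings tried were a replicate block, other scaling, probe set averaging, filters on dim genes, other variance models, Y-linked signal and leaving out arrays.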

Additional observations from a re-analysis of the deposited data

How the results depend on the processing

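No autophagy gene of the 33 passed an adjusted p under 0.05 in limma under any of the 16 other settings, where the smallest adjusted p ran from 0.13 (Ulk2, without wild type array 1) to 0.847 (Ulk1, without mutant array 3). With the dimmer 50% of genes left out, 30 of the 33 were tested. Of the 33, 14 kept their direction in every setting in which they were fitted (15 of the 16 for Atg4a, which the filter on the dimmer 50% left out) and 19 did not. The cause of these changes was not tested. Mutant and wild type arrays of the same replicate number had correlations of deviations of 0.184, -0.026 and 0.063. Arrays of different numbers were not compared, so these values do not settle whether the numbers pair arrays. With the replicate block 10 genes of all were called at an adjusted p under 0.05, in place of 20. In that setting 3 autophagy genes (9.09%, all genes 11.0%) were at an unadjusted p under 0.05, in place of 1. Ulk1, the gene at the unadjusted threshold, missed it with probe sets averaged (log2 difference -0.26) and without mutant array 3 (-0.39). It also missed it with the Y-linked covariate and without wild type arrays 2 and 3, where the difference stayed at -0.53 and its SE was 0.231 and 0.236 in place of 0.176. Genes called over all genes at an adjusted p under 0.05 numbered 6 after a further quantile normalization, 40 with trend and robust fitting, 8 with array weights, 0 with a covariate for Y-linked signal and 0 without wild type arrays 2 and 3. Under the same 5 settings, in that order, autophagy genes at an unadjusted p under 0.05 numbered 4, 3, 3, 2 and 4 of 33, which is 12.1%, 9.09%, 9.09%, 6.06% and 12.1%, against 9.97%, 10.2%, 12.0%, 6.32% and 9.50% of all genes. At an adjusted p under 0.10, 49 genes were called. Autophagy genes without overlap numbered 5 (15.2%, all genes 16.0%) after quantile normalization, 5 (15.2%, all genes 16.6%) with probe sets averaged and 22 (66.7%, all genes 55.6%) without wild type arrays 2 and 3, where a single wild type array remains. Leaving out 1 array gave 5 (without wild type array 3) to 31 (without wild type array 1) calls over all genes at the adjusted threshold. It gave 0 autophagy genes at the unadjusted threshold without mutant array 3 (all genes 5.86%) and 4, the most, without wild type array 2 or 3 (12.1%, all genes 9.47% and 9.55%). Those without overlap ran from 4 without wild type array 1 (12.1%, all genes 44.0%) to 13 without wild type array 2 (39.4%, all genes 24.2%), and the median from -0.086 to 0.022. For the other autophagy genes it gave 4 to 10 at the unadjusted threshold, with a median of -0.012 to 0.16. With the Y-linked covariate the medians of the core and other genes were -0.12 and -0.039, and without wild type arrays 2 and 3 they were -0.14 and -0.054.

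Log2 differences that turned sign after quantile normalization were Becn1 -0.031, Pik3c3 -0.0061, Wipi2 -0.00056, Atg4b -0.0032, Atg4d -0.021 and Atg5 -0.044. With probe sets averaged they were Becn1 -0.15, Atg4b -0.045, Atg4d -0.041, Atg5 -0.33 and Sqstm1 -0.052, and with array weights Wipi2 -0.011, Atg4c -0.013, Atg4d -0.025, Atg16l1 0.087 and Map1lc3a 0.23. With the Y-linked covariate they were Ulk2 -0.085, Atg13 0.050, Becn1 -0.15, Atg14 0.21, Atg2a -0.12, Atg9a -0.13, Atg4c -0.11, Atg5 -0.0084 and Atg7 0.077. Without wild type arrays 2 and 3 they were Ulk2 -0.13, Atg13 0.034, Becn1 -0.17, Atg14 0.26, Atg2a -0.14, Atg9a -0.14, Atg4c -0.16, Atg5 -0.028, Atg7 0.028 and Atg10 -0.0032. Leaving out 1 array in turn, the ranges of genes that turned sign were Atg13 -0.38 to 0.043, Atg14 -0.29 to 0.11, Atg16l1 -0.32 to 0.18, Atg2a -0.16 to 0.37, Atg4b -0.028 to 0.18, Atg4c -0.20 to 0.15, Atg4d -0.053 to 0.10, Atg5 -0.12 to 0.19, Atg7 -0.51 to 0.16, Atg9a -0.076 to 0.11, Becn1 -0.049 to 0.12, Map1lc3a -0.73 to 0.35, Pik3c3 -0.075 to 0.16, Pik3r4 -0.40 to 0.00023, Rb1cc1 -0.34 to 0.14 and Wipi2 -0.087 to 0.24.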
